A study of Mus musculus with 4 samples.

Results

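Cyclins are the regulatory subunits that switch on cyclin-dependent kinases (CDKs), and each kinase works only while its cyclin is present. D-type cyclins with Cdk4 open G1 by phosphorylating the retinoblastoma protein, E-type cyclins with Cdk2 start DNA replication, cyclin A2 serves S phase and G2 with Cdk2 and Cdk1, and B-type cyclins with Cdk1 drive mitosis. Resting splenic B cells sit outside the cycle, and a mitogen such as LPS brings them into division.

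The genes described are Ccnd2, Ccnd3, Cdk4, Ccne1, Ccne2, Cdk2, Ccna2, Ccnb1, Ccnb2 and Cdk1. They were found as all gene probes whose listed RefSeq transcript belongs to one of these 10 symbols, which gave 18 of the 39429 probes on the array and 10 of the 20144 named genes. The scanner software called all 18 probes well above background on all 4 arrays, although the Ccne2 spot was near its local background. The cells were CD43-negative splenic B cells of Aff3-/- mice and of Aff3+/- mice, 2 samples per genotype, with 1 array each. The Aff3+/- samples carry one disrupted allele, so the comparison holds no wild type. All samples had been kept for 3 days with 10 ug/mL LPS, a bacterial ligand of TLR4, and 10 ng/mL IL-4, so it holds no resting cells either. Aff3 belongs to the AF4/FMR2 genes, nuclear factors tied to transcription elongation, and the study asked what its loss does to gene expression. The age of the mice and whether each sample came from its own mouse are not given in the sources used here, so p-values measure the spread between these samples only.

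Signal is given as a multiple of the 75th percentile of the array's gene spots, which lay between 1274 and 1351 intensity units, and differences are on the log2 scale as Aff3-/- minus Aff3+/-. The arrays lay on 1 slide read in 1 scan, no gene spot was saturated, and each array had between 24942 and 25862 probes well above background. Precision is limited by having only 4 arrays, and an exact permutation test of 2 against 2 cannot give a two-sided p below 0.333. No probe matched any of the 7 RefSeq transcripts of Aff3 in the naming table, so its transcript was not analysed here and the genotypes rest on the labels. Of 9 B cell markers, such as Cd79a, 9 were well above background on every array. Of 10 myeloid markers 6 were so on both arrays of at least 1 genotype, among them Flt3 (15.3 and 11.4 times the 75th percentile in Aff3-/- cells, 15.1 and 12.0 in Aff3+/- cells) and Itgam (7.5 and 6.92, against 8.22 and 7.14), while Lyz2, S100a8, S100a9 and Mpo were not. Of 10 T cell markers 8 were, among them Lck (6.60 and 6.24 in Aff3-/- cells, 7.20 and 6.53 in Aff3+/- cells) and Cd4 (2.15 and 2.02, against 2.10 and 2.33), while Cd3g and Trat1 were not. The other tested myeloid and T cell markers lay below the 75th percentile on every array. Among them Cd14 read 0.015 and 0.012 in Aff3-/- cells and 0.008 and 0.016 in Aff3+/- cells. Cd3e read 0.29 and 0.24, against 0.30 and 0.27, and Cd3d 0.013 and 0.012, against 0.012 and 0.013.

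Promoters of 4 of these genes are shown, those of the mitotic genes Ccnb1, Ccnb2 and Cdk1 and that of Cdk4, a known target of Myc. RefSeq (GRCm38.p6) gave a window of 250 bases before to 50 after the start for 7 of the 10 genes. In the mitotic genes, capitals mark both strands' matches to CCAAT, the site of NF-Y, and to TTTGAA. The letters TTTGAA are a form of the cell cycle homology region bound by the MuvB complex, and no other form was searched. In Cdk4, capitals mark matches to CACGTG, the E-box that Myc and Max bind. The motifs were chosen with earlier results of these data known.
Ccnb1 (chr13:100786437-100786736, minus strand): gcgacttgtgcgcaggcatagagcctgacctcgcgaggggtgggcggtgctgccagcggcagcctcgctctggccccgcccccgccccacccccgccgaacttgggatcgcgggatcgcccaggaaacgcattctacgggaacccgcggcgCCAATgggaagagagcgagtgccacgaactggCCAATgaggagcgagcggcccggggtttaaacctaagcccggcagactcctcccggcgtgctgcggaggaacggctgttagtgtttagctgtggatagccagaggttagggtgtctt
Ccnb2 (chr9:70421505-70421804, minus strand): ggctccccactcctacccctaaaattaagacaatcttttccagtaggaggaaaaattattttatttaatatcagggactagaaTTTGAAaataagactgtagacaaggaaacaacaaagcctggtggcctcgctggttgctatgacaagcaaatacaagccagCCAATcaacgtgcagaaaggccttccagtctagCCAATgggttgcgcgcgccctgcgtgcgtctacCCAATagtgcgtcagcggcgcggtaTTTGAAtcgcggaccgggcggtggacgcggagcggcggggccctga
Cdk1 (chr10:69352863-69353162, minus strand): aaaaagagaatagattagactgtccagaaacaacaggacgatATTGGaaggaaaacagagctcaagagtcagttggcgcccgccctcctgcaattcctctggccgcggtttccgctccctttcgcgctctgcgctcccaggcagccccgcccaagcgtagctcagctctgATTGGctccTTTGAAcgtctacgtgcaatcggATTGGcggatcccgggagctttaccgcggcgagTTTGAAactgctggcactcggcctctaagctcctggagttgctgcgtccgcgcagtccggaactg
Cdk4 (chr10:127063285-127063584, plus strand): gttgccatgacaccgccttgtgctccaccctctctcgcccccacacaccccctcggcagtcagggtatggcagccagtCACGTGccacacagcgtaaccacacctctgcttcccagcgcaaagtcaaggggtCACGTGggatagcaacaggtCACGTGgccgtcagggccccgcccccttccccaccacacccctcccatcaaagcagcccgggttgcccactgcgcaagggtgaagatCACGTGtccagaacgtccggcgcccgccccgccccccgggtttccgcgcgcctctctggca
Ccnb2 and Cdk1 each held 3 CCAAT and 2 TTTGAA matches, and Ccnb1 held 2 CCAAT and 0 TTTGAA matches. The windows of Ccnd3, Ccne1 and Cdk2 held 0 TTTGAA and either 0 or 1 CCAAT matches. These genes showed the same order of arrays as the mitotic genes, as described further on. Of the 32851 RefSeq promoter windows of this length, 37.4% held at least 1 CCAAT, 17.9% at least 1 TTTGAA and 6.95% both. By number, 11.7% held 2 or more CCAAT, 3.37% held 3 or more, and 2.31% held 2 or more TTTGAA. Cdk4 held 4 CACGTG matches, a motif found at least 1 time in 7.15% of the windows and 3 or more times in 0.0883%. These matches are letters in a sequence, and no factor's binding was measured. A link between the motifs and the order of arrays was not tested.

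Comparison of Aff3-/- with Aff3+/- cells asked whether the cyclin and CDK transcripts of activated B cells depend on Aff3. No member passed the test. With limma and Benjamini-Hochberg adjustment over 20637 features, the adjusted p was 1.00 for each of the 10 genes, and the smallest unadjusted p was 0.67 (Cdk4). Of all features 0% passed the adjusted threshold of 0.05, and 421 features, or 2.04%, had an unadjusted p under 0.05. By sign, 5 members were higher and 5 lower in Aff3-/- cells, and their median difference was 0.0003, against -0.01 over all features. The differences ran between -0.14 (Ccne2) and +0.15 (Ccne1). In all 10 genes the arrays of the 2 genotypes overlapped (0 genes apart), whereas 19.6% of all features showed no overlap. This is no separate result, since all 10 were ordered by replicate number, as described further on, and such an order makes the genotypes overlap. How many members were higher depended on which arrays were used, with the count at 1 of 10 and the median at -0.14 when Aff3+/- replicate 1 was left out. Leaving out Aff3-/- replicate 2 gave 1 of 10 and -0.12. Leaving out Aff3-/- replicate 1 gave 9 of 10 and +0.15, and leaving out Aff3+/- replicate 2 gave 10 of 10 and +0.15.

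**Figure D1:**
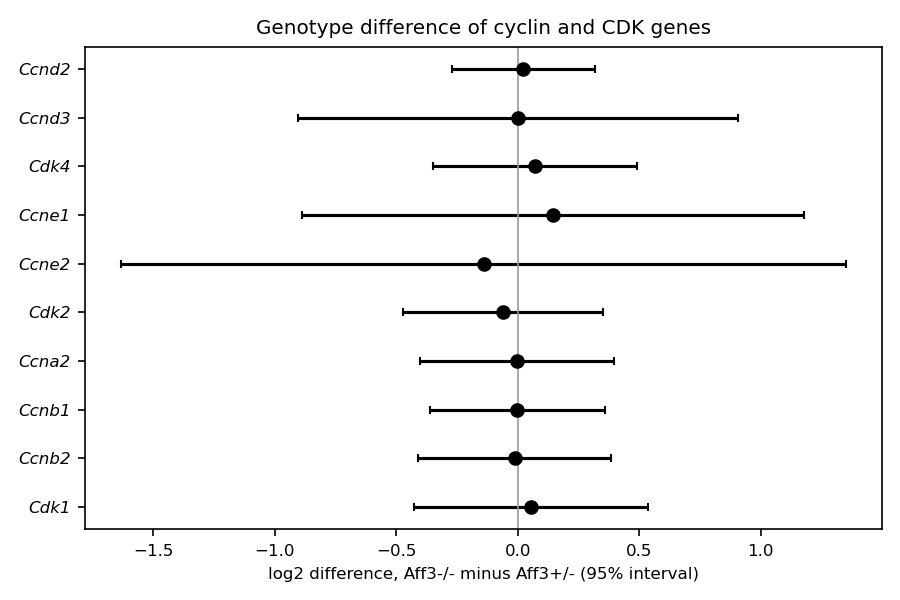
Log2 difference between Aff3-/- and Aff3+/- cells for each of the 10 genes (points), with the 95% interval of the limma fit over 2 arrays per genotype (bars). Every interval holds 0; the interval of Ccnd2 is the narrowest, at -0.27 to +0.32, and that of Ccne2 the widest, at -1.63 to +1.35.

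None of the G1 genes differed between genotypes by more than the arrays of Aff3-/- cells differed from each other. Against the Aff3+/- arrays this held for Ccnd3 and Cdk4 but not for Ccnd2, whose Aff3+/- arrays were nearly equal (replicate 2 minus replicate 1, -0.003). Ccnd2, the D-type cyclin that B cell receptor signalling induces in mouse B cells, stood at 14.5 and 13.8 times the 75th percentile on the Aff3-/- arrays and at 13.9 and 13.9 on the Aff3+/- arrays. The 4 arrays were close to each other and the genotypes overlapped, with a log2 difference of +0.02 ± 0.11 (SE, n = 2 each) and a 95% interval of -0.27 to +0.32. Ccnd3, the D-type cyclin required for the expansion of pre-B cells and of germinal centre B cells, read 6.92 and 11.2 in Aff3-/- cells and 6.90 and 11.2 in Aff3+/- cells. One array of each genotype was low and the other high, by nearly the same amount, so that the genotype means coincided (difference 0.002 ± 0.34, SE, 95% interval -0.90 to +0.91). A dimmer probe of Ccnd3, which cites another of its transcripts, gave 2.54 and 3.27 in Aff3-/- cells and 2.62 and 3.30 in Aff3+/- cells. It ordered the arrays alike with a smaller gap. Cdk4, the kinase partner of the D-type cyclins, read 21.9 and 26.8 in Aff3-/- cells and 21.6 and 24.6 in Aff3+/- cells. Again the higher array of each genotype was its replicate 2, and the difference of +0.07 ± 0.16 (SE) was smaller than the gap within either genotype. The other 2 probes of Cdk4 differed by +0.01 and +0.03.

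Among the genes of S phase entry, the E-type cyclins varied most between arrays. Ccne1 read 2.53 and 4.81 times the 75th percentile in Aff3-/- cells and 2.51 and 3.96 in Aff3+/- cells. Both replicate 2 arrays lay well above both replicate 1 arrays, and the Aff3-/- array was the higher of the pair. The difference of +0.15 ± 0.39 (SE) had a 95% interval of -0.89 to +1.18, and the dimmer probe of Ccne1 gave -0.05 ± 0.28. Ccne2, the second E-type cyclin, has 1 probe, which read 0.00759 and 0.0181 in Aff3-/- cells and 0.00879 and 0.0190 in Aff3+/- cells. In intensity units these were 10.0 ± 3.1 and 23.3 ± 3.5 in Aff3-/- cells and 11.2 ± 3.2 and 25.7 ± 3.9 in Aff3+/- cells, where ± is the error that the scanner software gives for each spot. The replicate 2 arrays were the brighter ones in both genotypes, while the genotypes differed by -0.14 ± 0.56 (SE), with a 95% interval of -1.63 to +1.35. On the replicate 1 arrays the spot's median pixel, at 30.5 units in Aff3-/- cells and 38.5 in Aff3+/- cells, was below its local background of 37 and 42.5 units. Cdk2, the kinase that E- and A-type cyclins activate, read 0.77 and 0.89 in Aff3-/- cells and 0.79 and 0.95 in Aff3+/- cells. Here too both replicate 2 arrays were the higher ones, and the genotypes differed by -0.06 ± 0.16 (SE).

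The S, G2 and mitotic genes likewise overlapped between genotypes. Ccna2, the cyclin of S phase and G2, read 7.09 and 8.30 in Aff3-/- cells and 7.12 and 8.28 in Aff3+/- cells. Arrays with the same replicate number were nearly equal, and the difference was -0.002 ± 0.15 (SE, 95% interval -0.40 to +0.40). Ccnb2, a mitotic cyclin whose promoter is printed above, read 9.18 and 10.2 in Aff3-/- cells and 8.87 and 10.7 in Aff3+/- cells. The Aff3-/- arrays lay between the lowest and the highest Aff3+/- array, with a difference of -0.01 ± 0.15 (SE). Cdk1, the mitotic kinase, read 2.94 and 3.55 in Aff3-/- cells and 2.76 and 3.51 in Aff3+/- cells, a difference of +0.05 ± 0.18 (SE). Its other 2 probes gave +0.07 and +0.08, with both replicate 2 arrays again the highest on each.

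Ccnb1, the main mitotic cyclin, is covered by 3 probes that gave the same genotype result but not the same spread between arrays. Its brightest probe read 4.52 and 5.34 in Aff3-/- cells and 4.84 and 4.99 in Aff3+/- cells, a difference of -0.001 ± 0.14 (SE). The second probe read 0.58 and 1.04 in Aff3-/- cells and 0.65 and 0.99 in Aff3+/- cells, and the third 0.34 and 0.59 against 0.37 and 0.56. The genotypes overlapped on each probe, with differences of -0.05 ± 0.36 and -0.02 ± 0.35 (SE) on the dimmer probes. Between the replicate arrays of Aff3-/- cells the gap was 0.24 on the log2 scale for the brightest probe and 0.84 and 0.80 for the others. In Aff3+/- cells the gaps were 0.04, 0.62 and 0.60.

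**Figure D2:**
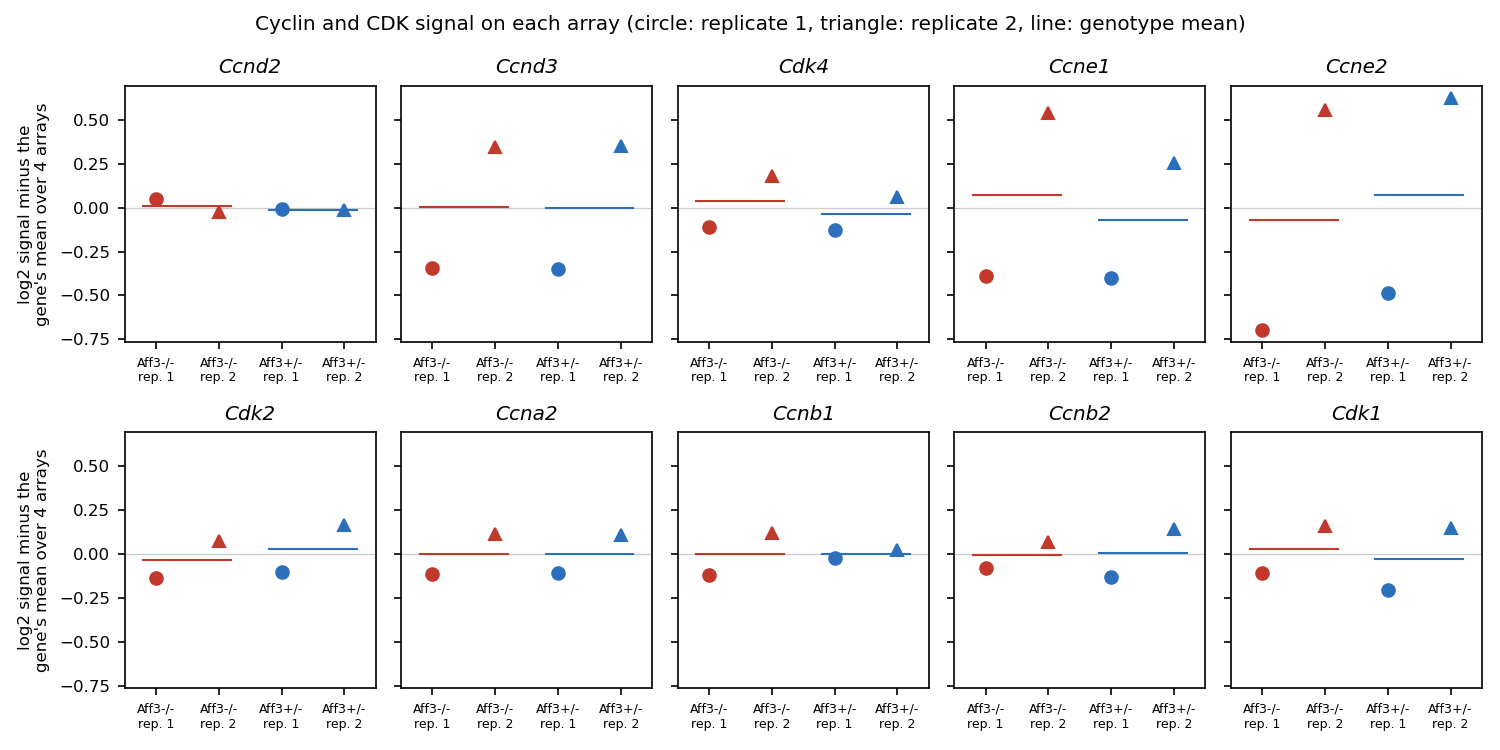
Log2 signal of the brightest probe of each gene on the 2 Aff3-/- arrays (red, left) and the 2 Aff3+/- arrays (blue, right), as the deviation from the gene's mean over the 4 arrays; circles are replicate 1, triangles replicate 2 and lines genotype means. In 9 of the 10 genes both triangles lie above both circles, and only Ccnd2 shows the opposite order, with nearly equal arrays.

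The data thus separated the arrays of these genes by replicate number rather than by genotype, a pattern noticed in the data and given as a description. In 9 of the 10 genes both replicate 2 arrays were brighter than both replicate 1 arrays, and 17 of the 18 probes showed the same order. Among all features 30.8% had this order and 33.5% the opposite one. The median difference of replicate 2 minus replicate 1 over the 10 genes was 0.26 in Aff3-/- cells and 0.27 in Aff3+/- cells, against -0.03 and -0.002 over all features. The exception was Ccnd2, at -0.07 in Aff3-/- cells and -0.003 in Aff3+/- cells. By each gene's brightest probe the gap was 0.93 in Aff3-/- cells and 0.65 in Aff3+/- cells for Ccne1 and 0.69 and 0.70 for Ccnd3, and it lay between 0.04 and 0.35 for Cdk4, Cdk2, Ccna2, Ccnb1, Ccnb2 and Cdk1. Other probes gave other sizes, as with the dimmer Ccnb1 probes above and the second Ccnd3 probe, at 0.37 and 0.34. For Ccne2 the gap read 1.25 and 1.11, but its replicate 1 spots did not exceed their local background, so that size is uncertain. The labels do not say what a replicate number stands for.

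**Figure D3:**
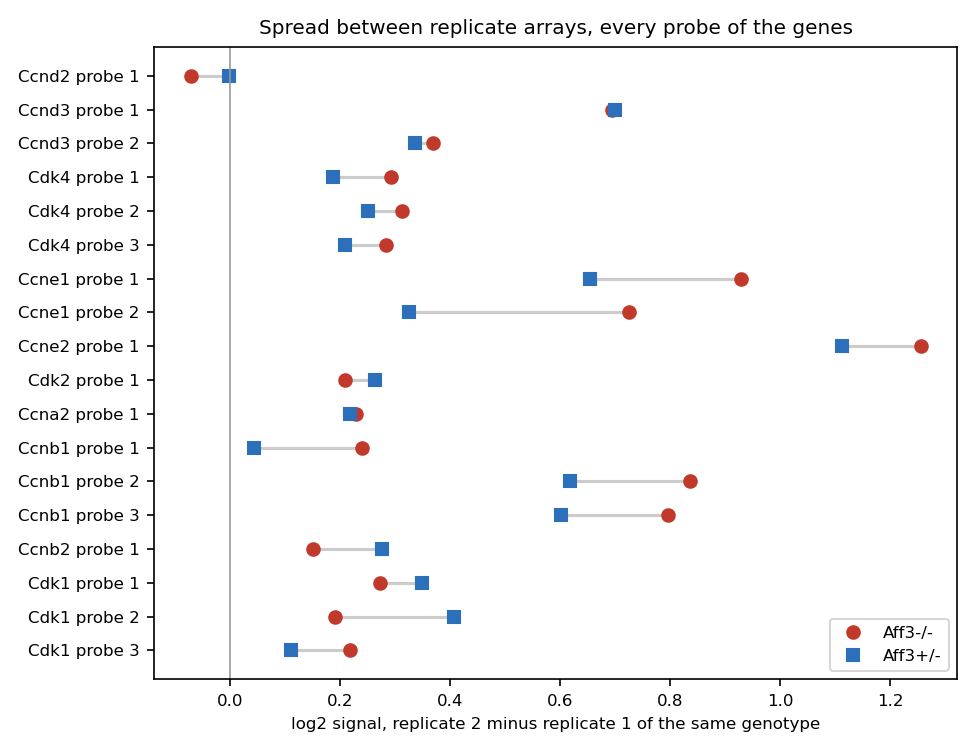
Difference in log2 signal between the 2 arrays of a genotype, replicate 2 minus replicate 1, for each of the 18 probes in Aff3-/- cells (red circles) and Aff3+/- cells (blue squares); probes of a gene are numbered by falling signal. All values lie above 0 except those of Ccnd2, and the 2 dimmer probes of Ccnb1 lie farther from 0 than its brightest one.

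Some cell type markers also differed between the replicate numbers. Among all features 30.8% were brighter and 33.5% dimmer on both replicate 2 arrays. B cell markers ran the other way from the cyclins and CDKs, with 0 of 9 genes brighter and 8 of 9 dimmer on both replicate 2 arrays and a median replicate 2 minus replicate 1 difference of -0.29 in Aff3-/- cells and -0.27 in Aff3+/- cells. Their summed signal was 285 and 232 times the 75th percentile in Aff3-/- cells and 272 and 246 in Aff3+/- cells. Of the 6 tested myeloid markers 1 was brighter and 4 were dimmer on both replicate 2 arrays. The 6 summed to 23.7 and 19.2 in Aff3-/- cells and 24.2 and 20.4 in Aff3+/- cells, most of it from Flt3 and Itgam. The 8 tested T cell markers showed no common order, with 1 brighter and 3 dimmer. They summed to 9.64 and 8.90 in Aff3-/- cells and 10.2 and 9.53 in Aff3+/- cells, most of it from Lck and Cd4. Of all 10 T cell markers 6 were well above background on Aff3+/- replicate 1, against 8 on each other array. Plasma cell markers, 7 of 7 tested, showed no common order, with 3 brighter and 2 dimmer, and summed to 54.4 and 56.9 in Aff3-/- cells and 46.9 and 52.3 in Aff3+/- cells. The part of these shifts in the cyclin and CDK pattern was not tested, and in such bulk samples fewer cells of a type and less RNA per cell cannot be told apart.

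Other regulators of the cycle were taken from lists chosen with earlier results of these data known. None of their members passed the adjusted threshold in either direction (limma, 0 of 110 tested genes).

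CDK inhibitors, which restrain CDKs, had 3 of 8 genes higher and 5 lower in Aff3-/- cells, with a median of -0.06. That median was -0.03 when Aff3-/- replicate 1 was left out, and -0.04 when either Aff3+/- replicate 1 or Aff3-/- replicate 2 was. Cdkn1c, a Cip/Kip inhibitor, was dim, at 0.034 and 0.035 in Aff3-/- cells against 0.028 and 0.029 in Aff3+/- cells. Both Aff3-/- arrays were above both Aff3+/- arrays, by +0.28 ± 0.11 (SE, limma unadjusted p = 0.058, adjusted p = 1.00). The INK4 inhibitor Cdkn2d read 3.44 and 3.10 in Aff3-/- cells and 3.80 and 3.48 in Aff3+/- cells, again without overlap (-0.16 ± 0.13, SE). Of all features 8.45% lay wholly higher and 11.1% wholly lower in Aff3-/- cells. Of the 8 inhibitors 2 were brighter on both replicate 2 arrays, among them Cdkn1a, the p53 target, at 0.71 and 0.81 in Aff3-/- cells and 0.70 and 0.79 in Aff3+/- cells.

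Cdc25 phosphatases, which activate CDKs, and the kinases Wee1 and Pkmyt1, which restrain them, had 3 of 5 genes higher, with a median of +0.03. This value turned to -0.06 when Aff3-/- replicate 2 was left out and to -0.02 when Aff3+/- replicate 1 was, and was +0.12 when Aff3-/- replicate 1 and +0.08 when Aff3+/- replicate 2 was omitted. Cdc25a, the phosphatase of S phase entry, read 2.84 and 4.34 in Aff3-/- cells and 2.93 and 3.83 in Aff3+/- cells, with both replicate 2 arrays above both replicate 1 arrays. The smallest p of the list belonged to Pkmyt1 (+0.09 ± 0.15, SE) and Cdc25b (-0.07 ± 0.18). Among Cks subunits and the ubiquitin ligases that destroy cyclins and inhibitors, 10 of 15 were higher and 10 of 15 were brighter on both replicate 2 arrays. Cdc20, the activator of the anaphase-promoting complex that marks B-type cyclins for destruction, read 12.3 and 17.4 in Aff3-/- cells and 13.1 and 17.0 in Aff3+/- cells. The genotypes overlapped there, at -0.03 ± 0.23 (SE). Fbxw7, which targets cyclin E, was the list's smallest p, at +0.12 ± 0.11 (SE) without overlap, followed by Cdc27 at -0.12 ± 0.11, also without overlap. The median of this list, +0.04, turned to -0.07 when Aff3+/- replicate 1 was left out and to -0.06 when Aff3-/- replicate 2 was, and was 0.12 or 0.13 when the remaining arrays were omitted in turn.

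Retinoblastoma and E2F genes, the switch that Cdk4 and Cdk2 act on, had 6 of 13 genes higher and a median of -0.01. Omitting Aff3-/- replicate 1 gave +0.06 and omitting Aff3+/- replicate 2 gave +0.04, whereas it was -0.05 when Aff3-/- replicate 2 and -0.04 when Aff3+/- replicate 1 was omitted. E2f2 was at -0.19 ± 0.16 (SE) and E2f3, without overlap, at +0.10 ± 0.11. S phase genes regulated by E2F had 15 of 17 genes higher in Aff3-/- cells, where 45.7% of all features were higher, and a median of +0.07. Cell type markers differed in sign alongside, with plasma cell markers higher in 7 of 7 genes (median +0.12). B cell markers were lower in 7 of 9 (median -0.14) and myeloid markers in 5 of 6 (median -0.14). Stromal and endothelial markers were lower in 4 of 5 (median -0.16) and NK cell markers in 3 of 3 (median -0.07). Erythroid markers were lower in 2 of 4 (median -0.12) and T cell markers in 4 of 8 (median -0.01). None of these markers passed the adjusted threshold (limma), and their part was not tested. Of the 7 plasma cell markers 1 lay wholly higher, and Tnfrsf17 (+0.38 ± 0.34, SE) and Sdc1 (+0.03 ± 0.40) were dim. Marker medians were not computed without single arrays. Of the 17 S phase genes 3 lay wholly above the Aff3+/- arrays, against 8.45% of all features, among them the thymidylate synthase gene Tyms, at 0.264 and 0.260 in Aff3-/- cells against 0.212 and 0.245 in Aff3+/- cells (+0.20 ± 0.13, SE). Rfc3, a clamp loader subunit, was at +0.10 ± 0.12. The median of these genes depended on single arrays. It was +0.18 when Aff3-/- replicate 1 was left out and -0.009 when Aff3-/- replicate 2 was. Leaving out Aff3+/- replicate 1 gave +0.01, and leaving out Aff3+/- replicate 2 gave +0.15.

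Genes of G2 and mitosis had 14 of 18 genes higher with a median of +0.03, and 14 of 18 were brighter on both replicate 2 arrays. The proliferation marker Mki67 read 26.7 and 31.2 in Aff3-/- cells and 26.1 and 30.4 in Aff3+/- cells, and the mitotic kinase gene Plk1 read 13.5 and 17.2 against 14.2 and 16.3. In both genes the replicate 2 arrays were the brighter ones in each genotype. Cenpf, a kinetochore protein, was the list's smallest p and lay wholly lower in Aff3-/- cells (-0.20 ± 0.14, SE), as did 11.1% of all features. It was dim, at 0.0283 and 0.0277 in Aff3-/- cells against 0.0292 and 0.0354 in Aff3+/- cells. Cenpa, the centromeric histone, was at -0.09 ± 0.13. The median of the 18 genes turned to -0.06 when either Aff3+/- replicate 1 or Aff3-/- replicate 2 was left out, and it was +0.09 without Aff3-/- replicate 1 and +0.10 when Aff3+/- replicate 2 was left out. The MuvB and G2/M factors, among them the proteins known to bind CCAAT and TTTGAA, had 5 of 10 genes higher and a median of +0.02 (between -0.03 when Aff3+/- replicate 1 and +0.05 when Aff3+/- replicate 2 was omitted), with Foxm1 at +0.08 ± 0.12 and Lin52 at +0.14 ± 0.21.

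Of the 7 tested of 10 other cyclins, 6 were lower in Aff3-/- cells, with a median of -0.04 (-0.009 when Aff3+/- replicate 1 was omitted), and 3 were brighter on both replicate 2 arrays. One of these was Ccnf, which read 3.46 and 5.06 in Aff3-/- cells and 3.65 and 4.75 in Aff3+/- cells and was chosen as an example after its values were seen. Ccny (-0.22 ± 0.42, SE) and the D-type cyclin Ccnd1 (-0.12 ± 0.27), of which lymphocytes make little, had the smallest p of that list. Ccnd1 read 0.049 and 0.034 in Aff3-/- cells and 0.053 and 0.037 in Aff3+/- cells. Among Cdk6 and the CDK-activating kinase genes 3 of 5 were higher and the median was +0.02 (between -0.002 when Aff3+/- replicate 1 and +0.07 when Aff3+/- replicate 2 was omitted), with Cdk20 at +0.13 ± 0.14 and Cdk6, the second D-type cyclin kinase, at -0.06 ± 0.20. Transcriptional cyclins and CDKs, known mainly for their part in transcription, had 5 of 12 higher and a median of -0.01. This median lay between -0.04 when Aff3-/- replicate 2 and +0.01 when Aff3-/- replicate 1 was omitted. Cdk8 was at +0.09 ± 0.13 and Ccnl2 at -0.06 ± 0.12.

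**Figure D4:**
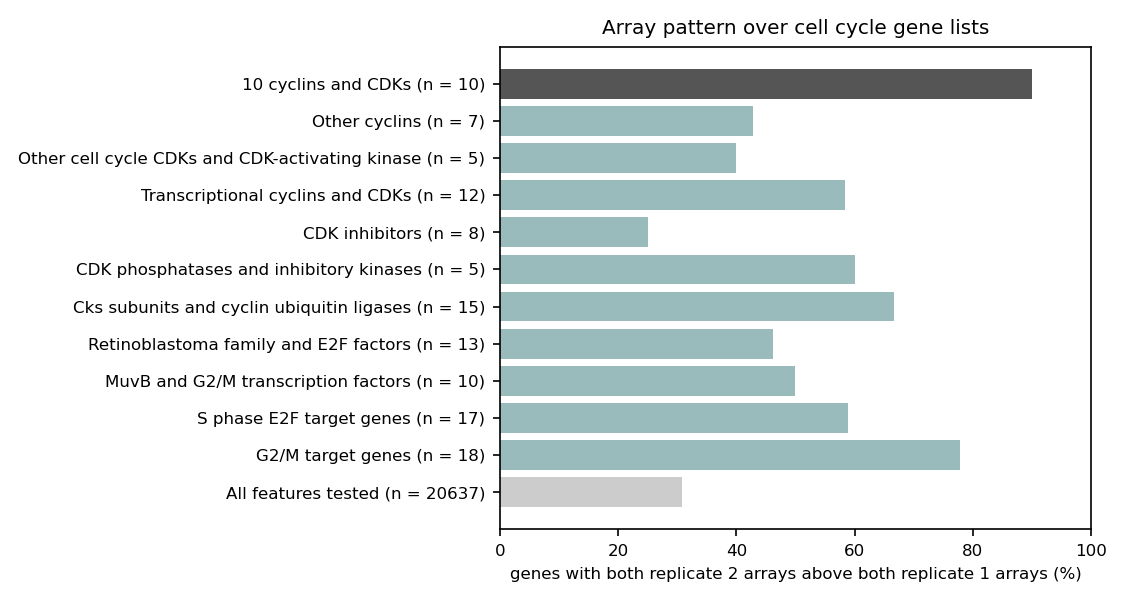
Share of genes in each of the 10 cell cycle lists, and among the 10 cyclins and CDKs, whose replicate 2 arrays of both genotypes were brighter than both replicate 1 arrays, with the number of tested genes. The 10 cyclins and CDKs (9 of 10) and the G2/M target genes (14 of 18) stand highest among the bars drawn, CDK inhibitors (2 of 8) lowest, and the bar for all features is at 30.8%.

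The genes whose values over the 4 arrays were most like the median profile of the 10 members were Slc41a1, Nucb1 and Copb1. Their root mean square distance from it was 0.012, 0.013 and 0.013 on the log2 scale, a likeness that rests on 4 arrays of 2 genotypes and was picked from 13784 named features.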

How the data were processed

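RNA of cultured spleen B cells, 2 samples of Aff3-/- and 2 of Aff3+/- mice, was hybridised as Cy3-labelled cRNA to Agilent arrays, 1 colour each, per the labels' protocols. Per the submitters' processing notes, Agilent Feature Extraction 10.7.1.1 read the spots. The deposited scanner files hold intensity values on a linear scale, background-subtracted within the array by Feature Extraction, per the file headers, and not scaled between arrays. A deposited table of 25372 log2 values, used as an alternative, is centred per probe and runs in the direction of the scanner values (r = 1.00 after centring each probe). How its arrays were scaled stays unknown, and its column medians were -0.04 and 0.02 for the Aff3-/- and 0.13 and -0.03 for the Aff3+/- arrays.

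Control spots (1377 of 44397) and outlier-flagged spots were left out. The log2 processed signal was set against each array's 75th percentile, and spots of a probe were averaged. Probes well above background on both arrays of a genotype were kept (25116 probes), and a gene was represented by its brightest one, which left 20637 features. Symbols came from a RefSeq table of GRCm38.p6 by transcript (26581 probes matched). No coordinates of that table are given for the array, whose design cites another build.

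Differences were fitted with limma 3.58.1 in R 4.3.3 (2 residual degrees of freedom, two-sided, adjusted p threshold 0.05, 95% intervals). The fit was tested on simulated data. Named genes were the 10 members and, from each other list, the 2 of smallest p. Cdkn1a, Cdc25a, Cdc20, Mki67, Plk1 and Ccnf were added after their values were seen. So were the markers Flt3, Itgam, Lck, Cd4, Cd14, Cd3d, Cd3e, Tnfrsf17 and Sdc1. The members and lists were chosen with earlier results of these data known. Alternatives covered background correction, scaling, the deposited values, filter, probe rule, variance model, replicate number and each array. The planned normexp correction used the spot's median signal, since the files hold no mean signal.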

Additional observations from a re-analysis of the deposited data

How the results depend on the processing

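No alternative brought any of the 10 genes past the adjusted threshold. No feature passed over all 4 arrays, with or without the replicate block. Without 1 array, between 0 and 18 features passed, 11 of 21399 without Aff3+/- replicate 1 and 18 of 20830 without Aff3+/- replicate 2, where the lone array is assumed to vary like the others. The number of members higher in Aff3-/- cells was 8 of 10 with median scaling and 3 of 7 in the deposited values, and between 1 and 10 without 1 array. The members' median difference, 0.0003 over all arrays and with the replicate block, then ran between -0.1359 and 0.1544. Over all arrays without a block, the order by replicate number held in 9 of 10 members with normexp, quantile normalization, median scaling and the mean of probes. In the deposited values, which come from the same arrays, it held in 7 of 7, centred or not. Those values hold no probe of Ccnd2, Ccnb2 or Cdk1, so the exception Ccnd2 could not show there. The filter and variance model leave the members' values unchanged, so those settings could not alter the order.

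Directions of single members near 0 turned as follows, the cause not being tested. With normexp Ccnd2 was -0.008267, Ccnd3 -0.003718 and Ccna2 0.0226. With the mean of probes Ccnd3 was -0.01291. With median scaling Ccna2 was 0.02956, Ccnb1 0.03007 and Ccnb2 0.01831. In the deposited values centred on each array's median, a setting added after the data were seen, Ccna2 was 0.05935 and Ccnb1 0.05986. Without 1 array the ranges were -0.01242 to 0.05897 for Ccnd2, -0.3479 to 0.3512 for Ccnd3, -0.07484 to 0.2171 for Cdk4, -0.3184 to 0.6097 for Ccne1, -0.768 to 0.4869 for Ccne2, -0.1942 to 0.06941 for Cdk2, -0.1158 to 0.1126 for Ccna2, -0.1212 to 0.1191 for Ccnb1, -0.151 to 0.1254 for Ccnb2 and -0.1208 to 0.2283 for Cdk1.

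Of the list medians, other cyclins were at -0.0114 with normexp, -0.005783 with median scaling, 0.01717 in the centred deposited values and -0.03862 to -0.00927 without 1 array. MuvB and G2/M factors were at -0.0778 in the deposited values, whose median over all features was -0.07. Without 1 array, Cks and ubiquitin ligase genes ran between -0.06694 and 0.1252 and S phase genes between -0.009226 and 0.1772. Deviations from the genotype means correlated at 0.56 between arrays of the same replicate number, over features. The labels do not say that the number marks a shared source. A slide block was not run, since 1 slide held all arrays. The signal of Ccne2 near background limits its precision.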
